A study of Rattus norvegicus with 862 samples.

Results

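Myc is 1 of the 14217 genes that were measured by a probe set with a single symbol in hearts of compound-treated rats. It was chosen by its own measured values in these hearts, namely the differences between treated rats and vehicle controls, so those differences are given as a description and carry no test. The platform's probe-to-gene table pairs Myc with 1 probe set. Male Sprague-Dawley rats, bought at an age of 6 to 8 weeks, had been given 1 of 88 compounds at a stated dose, or the vehicle alone, for the durations listed in the labels, and heart RNA was hybridised to Affymetrix arrays. The 862 arrays come from 840 rats, of which 611 were treated and 229 were controls, and 22 rats have 2 arrays. Rats of 1 compound, dose, vehicle and route form a profile here, and there are 97 of them. Most profiles hold rats of 1, 3 or 5 d of treatment, with 3 rats at most durations. Of the 97 profiles, 95 have matched controls, which are rats given the same vehicle by the same route for the same duration and whose RNA was extracted in the same of 5 campaigns.

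Each rat is a separate animal, and the number of rats limits the precision. Matched controls share the vehicle, route, duration and campaign with the treated rats but not always the study. A study is taken here as the rats whose numbers in the title share the part before the hyphen. A campaign is a run of RNA extraction dates with no gap longer than about a month. Arrays with the same hybridisation date form a hybridisation batch. Harvest was in the afternoon for durations up to 1 d and in the morning for 3 and 5 d. Levels are log2 values as deposited, so a difference of 1 is a doubling. The tissue holds many cell types, so more or fewer cells of a type and more or less RNA per cell cannot be told apart. The tissue label was borne out by heart muscle genes, whose mean level was 12.9 to 13.2 in Sulindac rats and 13.1 to 13.3 in their controls. Across the series 41 arrays stood apart from the rest in their correlation with the mean array or in liver or adipocyte genes. Of these, 37 were the only or the earlier array of their rat. Without these arrays 10 profiles instead of 9 passed the call rule given below for Myc.

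Myc is a transcription factor of the basic helix-loop-helix leucine zipper family that binds DNA as a dimer with Max, and their dimer recognises the E-box CACGTG. It drives genes of ribosome biogenesis, nucleotide synthesis and the cell cycle, and its own RNA and protein are short-lived. In the adult heart Myc is known to be low at rest and to be induced early after haemodynamic load and other stress.

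Promoters of genes that turn up in the results are printed here because they show the motifs that were searched. The sequences are those of RefSeq on the GRCr8 build, read 5′ to 3′ on the gene's strand and ending at the base before the start site. Capitals mark the AP-1 motif TGANTCA in Xirp1, Tnfaip6 and Srxn1, which are among the 10 genes whose changes were most like those of Myc. They mark the E-box in Max and Mxd4, a partner of Myc and an antagonist that competes for Max. In Egr1, an immediate early gene, they mark the CArG box, the site of serum response factor.
Xirp1 (chr8:128635012-128635261, minus strand): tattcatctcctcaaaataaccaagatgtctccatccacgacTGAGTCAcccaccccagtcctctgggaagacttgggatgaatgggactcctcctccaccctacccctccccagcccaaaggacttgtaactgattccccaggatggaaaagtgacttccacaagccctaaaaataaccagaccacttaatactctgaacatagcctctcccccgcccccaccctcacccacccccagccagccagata
Tnfaip6 (chr3:56911148-56911397, plus strand): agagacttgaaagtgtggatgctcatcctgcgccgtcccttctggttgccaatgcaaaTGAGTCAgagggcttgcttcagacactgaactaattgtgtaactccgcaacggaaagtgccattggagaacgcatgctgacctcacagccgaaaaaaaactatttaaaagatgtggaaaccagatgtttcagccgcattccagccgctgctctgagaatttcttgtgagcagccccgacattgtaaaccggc
Srxn1 (chr3:161064562-161064811, plus strand): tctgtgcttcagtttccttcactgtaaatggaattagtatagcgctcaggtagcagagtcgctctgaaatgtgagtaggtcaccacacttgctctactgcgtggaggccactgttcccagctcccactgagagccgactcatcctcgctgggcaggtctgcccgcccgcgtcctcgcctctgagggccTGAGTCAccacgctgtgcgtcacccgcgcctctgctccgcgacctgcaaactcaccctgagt
Max (chr6:101395291-101395540, minus strand): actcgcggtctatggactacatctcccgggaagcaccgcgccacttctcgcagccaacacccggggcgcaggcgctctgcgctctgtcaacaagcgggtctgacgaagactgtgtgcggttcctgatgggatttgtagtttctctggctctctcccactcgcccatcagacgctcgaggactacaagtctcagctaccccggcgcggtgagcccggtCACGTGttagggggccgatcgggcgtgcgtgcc
Mxd4 (chr14:80786531-80786780, plus strand): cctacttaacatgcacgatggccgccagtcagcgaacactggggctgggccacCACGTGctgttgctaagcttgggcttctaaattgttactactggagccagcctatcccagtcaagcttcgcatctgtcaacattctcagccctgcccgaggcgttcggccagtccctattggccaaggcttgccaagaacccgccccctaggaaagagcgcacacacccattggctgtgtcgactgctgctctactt
Egr1 (chr18:26736828-26737077, plus strand): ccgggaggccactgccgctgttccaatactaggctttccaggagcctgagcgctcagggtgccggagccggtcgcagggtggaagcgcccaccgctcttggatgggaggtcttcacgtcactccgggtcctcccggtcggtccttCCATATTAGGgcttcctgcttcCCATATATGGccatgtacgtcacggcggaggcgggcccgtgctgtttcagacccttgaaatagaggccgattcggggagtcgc

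Each motif reads the same on both strands, and no motifs overlap in the sequences shown. Over windows of 300 bases that run past the start site, the E-box was found in 6.42% of 33469 promoters, AP-1 in 7.33%, the cyclic AMP response element TGACGTCA in 1.83% and the CArG box in 1.64%. Of the 10 genes most like Myc, 5 have a promoter in the table and 3 of these 5 hold AP-1 and none holds the E-box. Of 19 immediate early genes with a promoter, 5 hold the CArG box, 4 the cyclic AMP response element, 4 the E-box and 1 AP-1. The E-box was found in 9 of 22 genes of ribosome biogenesis (40.9%) and in 4 of 10 genes listed as dimer partners and antagonists, which are Max, Mlx, Mnt and Mxd4. A match is a description of the letters and not a site that was shown to be bound.

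Myc varied widely even without a compound. Over the 611 treated rats its level was 5.29 at the lowest, 6.60 at the median and 10.23 at the highest, and over the 229 control rats it was 5.62, 6.58 and 9.86. The mean was 6.89 ± 0.932 in treated rats and 6.81 ± 0.865 in control rats (SD). That level lies near the middle of the array, above 46.5% of genes, while the spread does not. The SD over control rats was above that of 99.5% of genes. Within groups that share vehicle, route, duration and campaign, but not always study or hybridisation batch, it was 0.657, against a median gene's 0.201. The treated and the control rats therefore cover nearly the same range, and the profiles differ in where their rats lie within it.

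For each profile the difference between treated rats and matched controls was estimated with limma over all genes, with duration and campaign as a factor. A gene is said here to pass the call rule, or to be called, where its p-value, adjusted over all genes with the Benjamini-Hochberg method, is at most 0.01 and its fold change at least 1.5. Myc was higher in the treated rats of 53 profiles and lower in those of 42. The median difference was 0.09 log2 units and the SD over profiles 0.64. It was above 1 in 12 profiles and below -1 in 2. Myc passed the call rule in 9 profiles, in each as higher, where 0.357% of all gene and profile pairs were called higher and 0.344% lower. Only 0.809% of genes (115) were called higher in as many profiles as Myc or more, but the choice of Myc rests on these same values. In no profile was Myc called lower by limma, with 11 profiles lower at an unadjusted p under 0.05, and the methods' t-test called it lower in 0 as well.

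**Figure D1:**
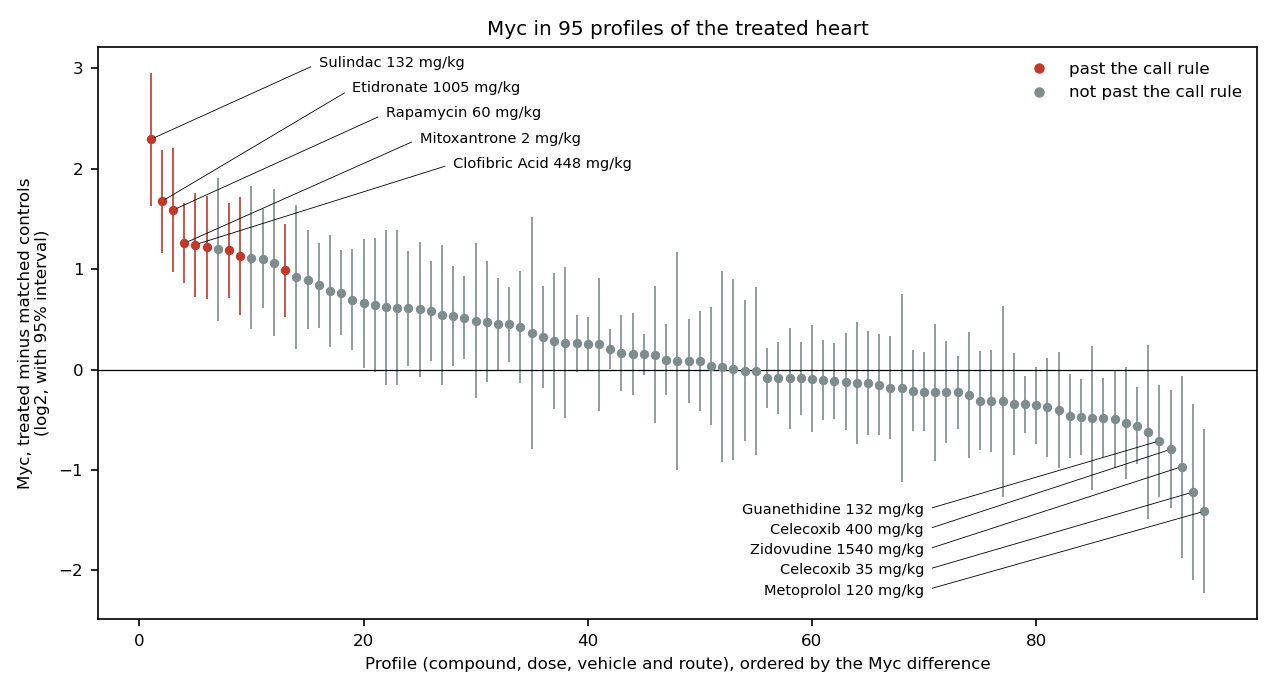
Difference in Myc between treated rats and their matched controls (log2, with 95% intervals) in 95 profiles, ordered by its size, with profiles past the call rule in red. The 9 red profiles lie among the 13 highest, Sulindac leads with 2.29, and none of the 5 lowest is past the rule.

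In 1 profile every treated rat lay above every matched control, and in 1 profile every treated rat lay below. Over all gene and profile pairs that separation was seen above in 0.548% and below in 0.541%. The 9 profiles hold 65 treated rats and 92 control rats. Several share controls, since Etidronate and Gabapentin were set against the same 17 water controls, Rapamycin and Tacrolimus against the same 18 carboxymethyl cellulose (CMC) controls, and Chlorobenzene and Fludrocortisone Acetate against 27 of that vehicle, which include those 18. The 19 corn oil controls of Sulindac are also among the 26 of Clofibric Acid. Of the 9, only the Clofibric Acid profile has controls from its own study, so that for the other 8 compound and study cannot be told apart. All 9 have controls in a hybridisation batch that also holds treated rats, and a difference over those shared batches is given with each. It is the mean of all treated rats in such batches minus the mean of all their controls. Batches and durations are pooled in it, so it removes the effect of neither.

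Sulindac, a cyclooxygenase inhibitor, gave the highest Myc difference at 132 mg/kg in corn oil. The 5 treated rats had 9.79, 9.76 and 9.13 at 3 d and 9.13 and 8.64 at 5 d, against a lowest, median and highest value of 6.07, 6.94 and 8.59 in 19 controls. All treated rats lay above all controls. The difference was 2.29 ± 0.32 (SE), which is 4.89-fold, and it was 2.83 at 3 d and 1.60 at 5 d. Within shared hybridisation batches, with 3 treated rats and 6 controls, it was 2.29. Sulindac also had the most called genes of the 9 profiles, with 3.5% of all genes called higher and 2.05% lower. Macrophage and neutrophil genes moved with Myc there. All 10 macrophage markers were called higher, and their mean level was 9.01 to 9.68 in treated rats and 7.35 to 8.18 in controls. Of 5 neutrophil markers 4 were called higher, with 5.51 ± 0.28 for S100a8 and 5.14 ± 0.27 for S100a9, both calcium-binding proteins of neutrophils, and a mean level of the 5 of 7.27 to 8.65 in treated rats and 5.08 to 5.97 in controls. The part of these cells in the Myc difference was not tested.

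Etidronate, a bisphosphonate, at 1005 mg/kg in water came next. The treated rats had 7.13, 8.66 and 8.36 at 3 d and 7.38, 8.33 and 9.04 at 5 d, against 5.71, 6.38 and 7.44 (lowest, median and highest) in 17 controls. Of the 6 treated rats 4 lay above every control. The difference was 1.67 ± 0.25, or 3.19-fold, and 1.60 in shared batches with 4 treated rats and 9 controls. With study as a random block it was 1.63, and the call was lost. In this profile 1.1% of genes were called higher and 0.274% lower. No macrophage marker was called, whereas S100a8 (1.81) and S100a9 (2.30) of the 5 neutrophil markers were, at a mean level of 5.66 to 7.20 in treated rats and 5.04 to 5.66 in controls. Their part in the Myc difference was not tested.

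Gabapentin, an anticonvulsant given at 2500 mg/kg, shares these controls. Its rats had 6.99, 7.00 and 8.43 at 3 d and 7.87, 8.11 and 7.57 at 5 d, and 4 of the 6 lay above every control. The difference was 1.19 ± 0.23, or 2.28-fold, and 1.24 in shared batches with 4 treated rats and 10 controls. It came with 0.858% of genes called higher and 0.0492% lower. The call was lost when any 1 of 3 of the treated rats was left out, with differences of 1.02 to 1.32 over all rats left out in turn. It was also lost with study as a random block (1.13), controls of every campaign (1.03), a new quantile normalization (1.10) and the methods' t-test. Of the macrophage markers 2 of 10 and of the neutrophil markers 2 of 5 were called higher, at mean levels of 7.87 to 8.30 in treated rats against 6.91 to 8.39 in controls for macrophages and of 5.70 to 6.14 against 5.04 to 5.66 for neutrophils. Their part in the Myc difference was not tested.

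Rapamycin, an inhibitor of the kinase mTOR, was given at 60 mg/kg in CMC. Its 6 rats had 7.40, 7.58 and 9.51 at 3 d and 8.20, 7.99 and 7.54 at 5 d, and the 18 controls had 5.67, 6.23 and 8.12 as lowest, median and highest. Only 2 treated rats lay above every control, and 1 control of 5 d reached 8.12. The difference was 1.59 ± 0.30, or 3.00-fold, and 1.23 in shared batches with 5 treated rats and 7 controls. Leaving out the 3 d rat at 9.51 lowered it to 1.26, and the call was lost. Few genes changed in this profile, 0.415% called higher and 0.0985% lower, and 19 of them were immediate early genes, as described below.

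Tacrolimus, a calcineurin inhibitor given at 134 mg/kg against the same controls, showed a smaller difference. Its rats had 8.28, 8.35 and 7.27 at 3 d and 7.57, 7.31 and 6.67 at 5 d, so that 2 of 6 lay above every control. The difference was 1.13 ± 0.29, or 2.18-fold, but 0.66 in shared batches with 5 treated rats and 7 controls, and 0.61 at 5 d alone. Leaving out 1 rat ended the call for 8 of the 24 rats. It was also lost with a random block for study (1.12) or for hybridisation (1.01), with controls of every campaign (0.96) and by the methods' t-test. In this profile 1.67% of genes were called higher and 0.802% lower. They include 4 of 10 macrophage markers higher (mean level 7.94 to 8.48 in treated rats and 7.49 to 8.09 in controls) and 3 of 5 red cell markers lower (7.38 to 8.21 and 8.08 to 9.72). Their part in the Myc difference was not tested.

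**Figure D2:**
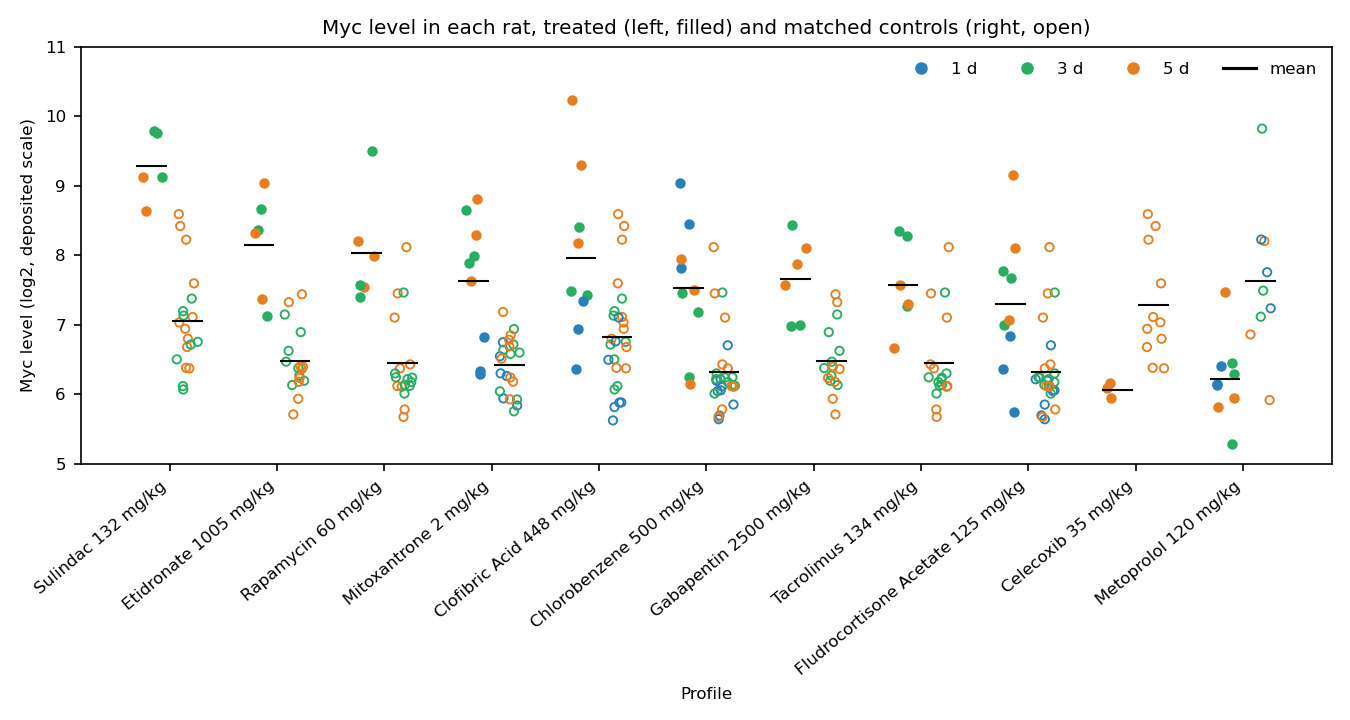
Myc level (log2, deposited scale) in each treated rat (filled, left) and each matched control (open, right) of the 9 profiles past the call rule and the 2 lowest, coloured by duration, with black lines for means. Sulindac is the only one of the 9 whose treated rats all lie above all of their controls.

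Mitoxantrone, a topoisomerase inhibitor used against cancer, was given intravenously in saline at 2 mg/kg. Its rats had 6.83, 6.34 and 6.30 at 1 d, 8.65, 7.89 and 7.99 at 3 d and 7.62, 8.29 and 8.81 at 5 d. The 22 controls ranged around a median of 6.53, between 5.75 at the lowest and 7.19 at the highest. The 6 rats of 3 and 5 d all lay above every control, and the 3 rats of 1 d lay within the control range. The difference was 1.26 ± 0.20, or 2.39-fold, and 1.22 in shared batches with all 9 treated and 22 control rats. In this profile 0.542% of genes were called higher and 0.521% lower. Red cell genes were the marker group that stood out. Of 5 markers 4 were called lower, with -3.51 for Hbb, a globin chain, and -3.52 for Alas2, the first enzyme of haem synthesis in red cells, and a mean level of 5.59 to 8.03 in treated rats and 8.08 to 9.45 in controls. Their part in the Myc difference was not tested.

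Clofibric Acid, which activates the lipid-sensing receptor Ppara, gave the highest single Myc value of the series at 448 mg/kg in corn oil. The treated rats had 6.94, 6.37 and 7.34 at 1 d, 7.43, 8.41 and 7.49 at 3 d and 8.18, 9.30 and 10.23 at 5 d, against 5.62, 6.76 and 8.59 in the 26 controls. Only 2 rats of 5 d lay above every control. The difference was 1.24 ± 0.25, or 2.37-fold, and 1.15 in shared batches with 8 treated and 20 control rats. Leaving out any 1 of 3 treated rats ended the call, with 1.02 the lowest value. The call was also lost with the 6 controls of its own study (0.94), with study as a random block (1.16) and with controls of every campaign (0.92). Hardly any other genes moved, with 0.225% called higher and 0.0633% lower.

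Chlorobenzene, a solvent given at 500 mg/kg in CMC, had its highest Myc values at 1 d. The rats had 9.04, 7.82 and 8.45 at 1 d, 7.46, 6.25 and 7.19 at 3 d and 6.15, 7.95 and 7.50 at 5 d, against 5.64, 6.18 and 8.12 in 27 controls. At 1 d the treated rats lay above the 9 controls of that duration, which reached 6.71, and at 3 and 5 d they overlapped. The difference was 1.22 ± 0.25, or 2.32-fold, 0.97 in the shared batch of 2 treated and 4 control rats, and 0.63 with the 1 d rats left out, where the call was lost. Called higher were 1.5% of genes and called lower 1.41%. Among them were 5 of 10 macrophage markers higher, at a mean level of 7.90 to 8.71 in treated rats and 7.49 to 8.09 in controls. Of 5 red cell markers 4 were lower (7.13 to 8.78 in treated rats and 8.08 to 9.72 in controls), and of 11 fibroblast and matrix markers 5 (9.96 to 10.91 and 10.31 to 11.49). Their part in the Myc difference was not tested.

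Fludrocortisone Acetate, a mineralocorticoid given at 125 mg/kg in CMC, had the smallest difference of the 9. Its rats had 5.75, 6.36 and 6.84 at 1 d, 7.00, 7.67 and 7.78 at 3 d and 8.11, 7.08 and 9.15 at 5 d, and 1 of them lay above all 27 controls. The difference was 0.99 ± 0.23, or 1.98-fold, but 0.40 in shared batches with 7 treated and 7 control rats. Leaving out the 5 d rat at 9.15 lowered it to 0.79 and ended the call, which was also lost with hybridisation batch as a random block (0.93). In this profile 0.823% of genes were called higher and 0.753% lower, among them 3 of 10 macrophage markers higher (mean level 7.79 to 8.67 in treated rats and 7.49 to 8.09 in controls) and 6 of 11 fibroblast and matrix markers lower (10.05 to 11.01 and 10.31 to 11.49). Their part in the Myc difference was not tested.

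The threshold divides profiles of like size. Just outside it lay Famotidine at 1200 mg/kg (1.20 ± 0.34), Paroxetine at 104 mg/kg (1.11 ± 0.35), Phenytoin at 572 mg/kg (1.11 ± 0.24) and Digitoxin at 2.75 mg/kg (1.06 ± 0.34). These differences exceed that of Fludrocortisone Acetate, the lowest inside. Phenytoin passed the rule under 4 other settings, Famotidine with controls of every campaign and Paroxetine with the later array of rats with 2.

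At the other end the beta blocker Metoprolol at 120 mg/kg gave the lowest difference, -1.41 ± 0.39. Its rats had 6.40, 6.15 and 6.13 at 1 d, 5.29, 6.45 and 6.30 at 3 d and 5.82, 7.47 and 5.95 at 5 d, with a mean of 6.22 ± 0.59 against 7.63 ± 1.09 in 9 controls of its own study (SD). At 1 d and 3 d the 3 treated rats lay below the 3 controls, and at 5 d they overlapped. Celecoxib, an inhibitor of cyclooxygenase 2, followed with -1.22 ± 0.41 at 35 mg/kg, where 3 rats of 5 d had 5.95, 6.16 and 6.09 and all lay below 11 controls of 6.37 to 8.59. The remaining low profiles were the nucleoside analogue Zidovudine at 1540 mg/kg (-0.97 ± 0.43), Celecoxib at 400 mg/kg (-0.79 ± 0.29) and Guanethidine, which blocks noradrenaline release, at 132 mg/kg (-0.71 ± 0.26). The controls of Metoprolol belong to campaign 5, which had the highest control mean. These 9 rats are among the 18 behind that mean, so the mean is not separate information about them. The part of the campaign in the Metoprolol difference was not tested.

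Within classes of compounds the Myc differences varied in size and sign. Among topoisomerase inhibitors, Epirubicin at 2.7 mg/kg had 0.52 ± 0.20, Idarubicin at 0.625 mg/kg 0.26 ± 0.14, Daunorubicin at 3.25 mg/kg -0.08 ± 0.15 and Doxorubicin at 3 mg/kg -0.35 ± 0.14, all against the same 22 controls as Mitoxantrone. The vinca alkaloids Vinblastine (0.90 ± 0.24 at 0.3 mg/kg) and Vinorelbine (0.58 ± 0.24 at 1.5 mg/kg) were both higher than controls. Of the alkylating agents, Cyclophosphamide had 0.42 ± 0.27, Ifosfamide 0.15 ± 0.09 and Chlorambucil -0.22 ± 0.33, the last with 0.79 at 3 d and -1.16 at 5 d. Doses differ between these compounds, so the values stand side by side without a comparison.

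Steroids spread on both sides of 0. Prednisone had 0.84 ± 0.20, Fluocinolone Acetonide 0.78 ± 0.27 and Dexamethasone 0.64 ± 0.32, while Cortisone had -0.08 ± 0.17, Prednisolone -0.23 ± 0.24 and Hydrocortisone -0.47 ± 0.18. The cyclooxygenase inhibitors other than Sulindac and Celecoxib ranged between 0.60 ± 0.33 for Indomethacin and -0.54 ± 0.27 for Rofecoxib. Aspirin had 0.25 ± 0.32 and Valdecoxib -0.34 ± 0.25, while both Celecoxib profiles lay below Rofecoxib, as given above. Of the fibrates, Bezafibrate had 0.61 ± 0.27 and Fenofibrate -0.40 ± 0.28. None of the compounds in this paragraph passed the call rule, though Fluocinolone Acetonide did with study as a random block. Fludrocortisone Acetate, also a steroid, Sulindac and Clofibric Acid passed it, as described above.

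No agent of the cardiovascular classes named here passed the call rule. By subcutaneous mini-pump, Angiotensin II Human had 0.62 ± 0.36 at 0.72 mg/kg and -0.32 ± 0.45 at 0.5 mg/kg, Isoprenaline 0.45 ± 0.17 at 4.2 mg/kg and 0.0029 ± 0.42 at 2 mg/kg, Norepinephrine 0.27 ± 0.34, L-Phenylephrine -0.09 ± 0.24 and Aldosterone -0.01 ± 0.32. The angiotensin receptor blockers had 0.77 ± 0.21 (Candesartan), 0.45 ± 0.22 (Losartan), 0.32 ± 0.24 (Valsartan at 30 mg/kg) and -0.12 ± 0.23 (Valsartan at 1000 mg/kg). The beta blockers other than Metoprolol at 120 mg/kg had -0.46 ± 0.20 (Atenolol) and 0.08 ± 0.24 (Metoprolol at 1200 mg/kg). Between doses of 1 compound the vehicle, the campaign or the durations differed in these cases, so no dose comparison was made.

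Among immunosuppressants, Rapamycin and Tacrolimus passed the rule, and Azaribine at 750 mg/kg had 0.49 ± 0.37. Cyclosporin A, which inhibits calcineurin as Tacrolimus does, had -0.14 ± 0.30 at 350 mg/kg in corn oil and -0.63 ± 0.41 at 300 mg/kg in acacia. Antidepressants and antipsychotics ranged between 1.11 ± 0.35 for Paroxetine and -0.56 ± 0.19 for Levosulpiride, with 0.62 ± 0.37 for Sulpiride, -0.18 ± 0.25 for Fluoxetine, -0.25 ± 0.31 for Haloperidol and -0.31 ± 0.25 for Risperidone. Allylamine, which injures the heart, had 0.09 ± 0.51 at 40 mg/kg in corn oil and 0.04 ± 0.29 at 75 mg/kg in water.

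Imatinib is the compound whose 2 doses share vehicle, campaign and durations. Each dose was part of the contrasts by which Myc was chosen, so their difference is given as a description with no test. Myc was 6.53 ± 0.42 at 150 mg/kg and 6.48 ± 0.28 at 15 mg/kg (SD, n = 9 each). The difference of 0.05 had a 95% interval of -0.26 to 0.36 with limma. With these rats a difference of any size within that interval remains possible.

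Differences by duration are parts of the contrasts by which Myc was chosen, so they are given as a description with no test. Mitoxantrone had differences of 0.21 at 1 d, 1.77 at 3 d and 1.69 at 5 d. Dexchlorpheniramine at 47 mg/kg had 2.02 at 3 d and -0.14 at 5 d. Chlorobenzene had 2.38 at 1 d, 0.64 at 3 d and 0.63 at 5 d. Chlorambucil at 4.5 mg/kg had rats of 7.40, 7.02 and 8.15 at 3 d and of 6.19, 6.16 and 6.03 at 5 d.

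Other profiles past the call rule also had differing values by duration. Clofibric Acid had 0.66, 1.04 and 1.95 at 1, 3 and 5 d, Fludrocortisone Acetate 0.26, 1.16 and 1.54, Etidronate 1.54 and 1.81 at 3 and 5 d, Gabapentin 0.96 and 1.41, and Rapamycin 1.84 and 1.34. Phenytoin had rats of 8.39, 8.33 and 8.24 at 3 d, all above the 8 controls of that duration with a highest value of 7.15, and of 6.73, 7.23 and 6.65 at 5 d, within the range of 9 controls. Famotidine had 8.14, 9.01 and 9.26 at 3 d and 7.18 and 7.08 at 5 d. With 2 or 3 rats per duration, the order of these values has wide error.

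**Figure D3:**
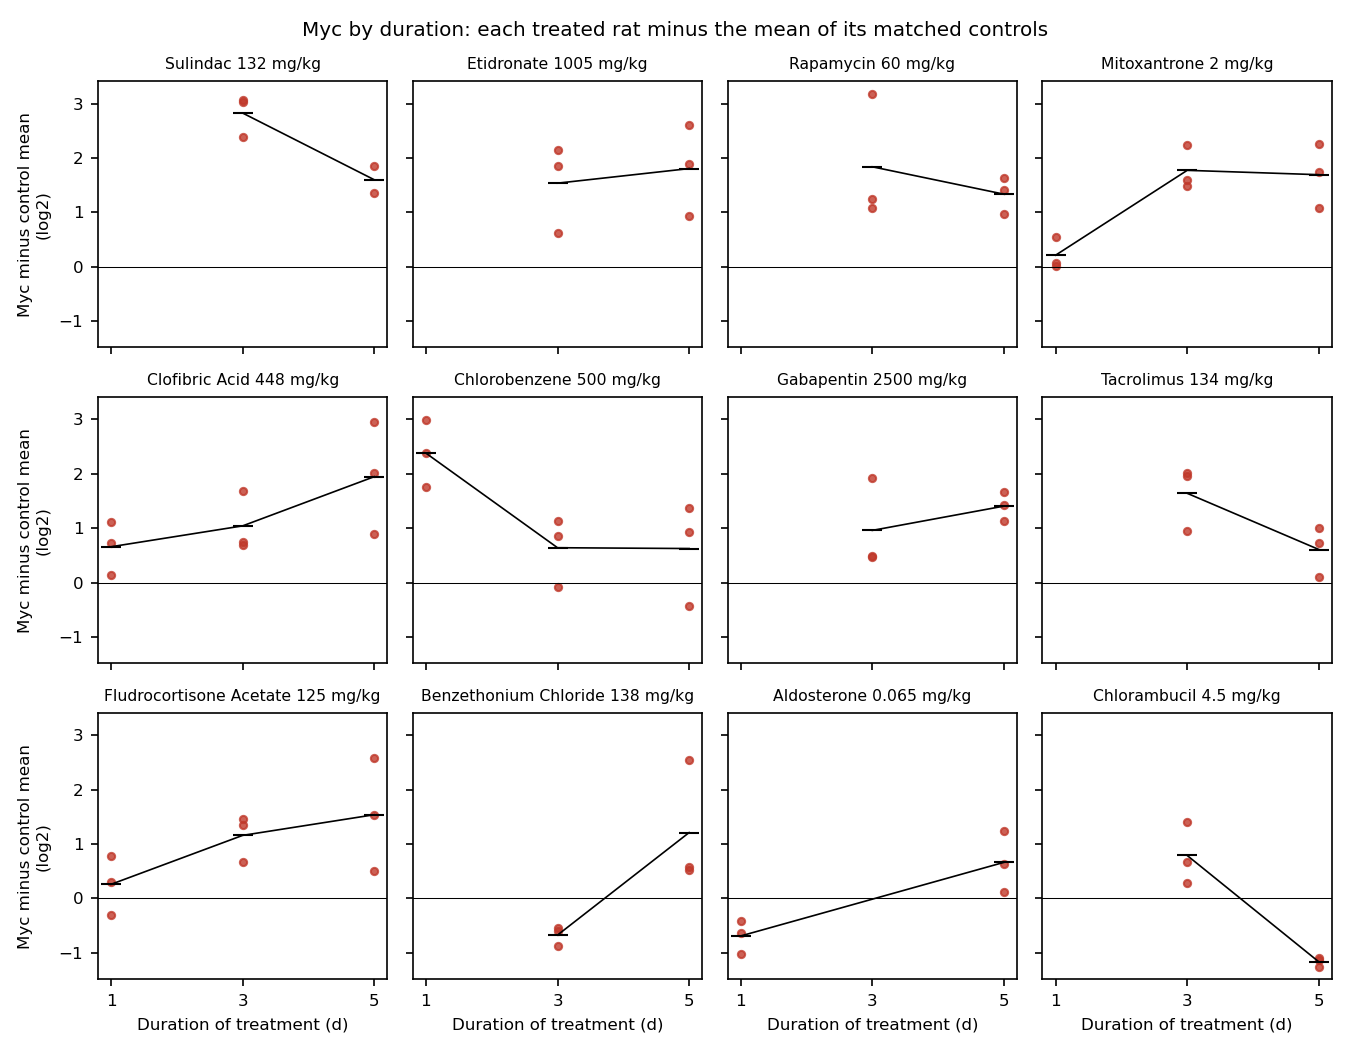
Myc in each treated rat minus the mean of its matched controls (log2) by days of treatment, for the 9 profiles past the call rule and 3 others, with short lines for means joined over durations. Mitoxantrone lies near 0 at 1 d and at 1.77 and 1.69 later, Chlorobenzene is highest at 1 d with 2.38, and Chlorambucil lies above 0 at 3 d and below it at 5 d.

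The control hearts show how Myc varied without a compound, a comparison that the choice of the gene did not use. In a fit of 209 control rats with duration, campaign and vehicle with route, Myc differed between campaigns (F = 9.50, adjusted p = 3.38e-06 by limma), as did 50.6% of all genes. Mean levels in campaigns 1 to 5 were 6.57 ± 0.65 (n = 138), 6.28 ± 0.20 (n = 9), 6.84 ± 0.71 (n = 34), 7.54 ± 1.17 (n = 18) and 7.76 ± 1.09 (n = 18) (SD). Campaign 5 was above campaign 1 by 1.21 (95% interval 0.69 to 1.73, adjusted p = 7.01e-05, 31.8% of genes called). Campaign 4 was above it by 0.83 (0.40 to 1.26, adjusted p = 0.00248, 11.8% of genes called). These fits take each rat as a replicate, although rats of a campaign share studies, so the intervals may be too narrow and the p-values too small. With study as a random block the difference of campaign 4 was 0.87 with an adjusted p of 0.0615 by limma.

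Myc also differed over vehicle with route in that fit (F = 3.99, adjusted p = 0.0018 by limma, 6.29% of genes called), though with study as a block the F was 3.18 and the adjusted p 0.0267. The means that follow are not adjusted for campaign, and the acacia controls all belong to campaign 5. Saline by gavage had the lowest mean, 6.02 ± 0.24 (n = 6), and acacia the highest, 7.88 ± 1.15 (n = 9), while CMC had 6.50 ± 0.66 (n = 39), water 6.64 ± 0.72 (n = 64) and corn oil 6.96 ± 0.95 (n = 41). Corn oil minus water, by gavage, was 0.45 (0.10 to 0.81), which did not pass (adjusted p = 0.191 by limma), with 0.176% of genes called. Controls of 1 d minus those of 3 and 5 d differed by -0.21 (-0.44 to 0.02, adjusted p = 0.463 by limma, 1.17% of genes called), so that an effect of the harvest hour or the duration on Myc within that interval was not detectable. Taken one at a time, study accounted for 50.0% of the variance of Myc over 217 controls, hybridisation batch for 39.5%, campaign for 23.3%, vehicle with route for 21.6% and duration for 2.22%. These factors overlap, and a factor with more levels can take a larger share through its levels alone.

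**Figure D4:**
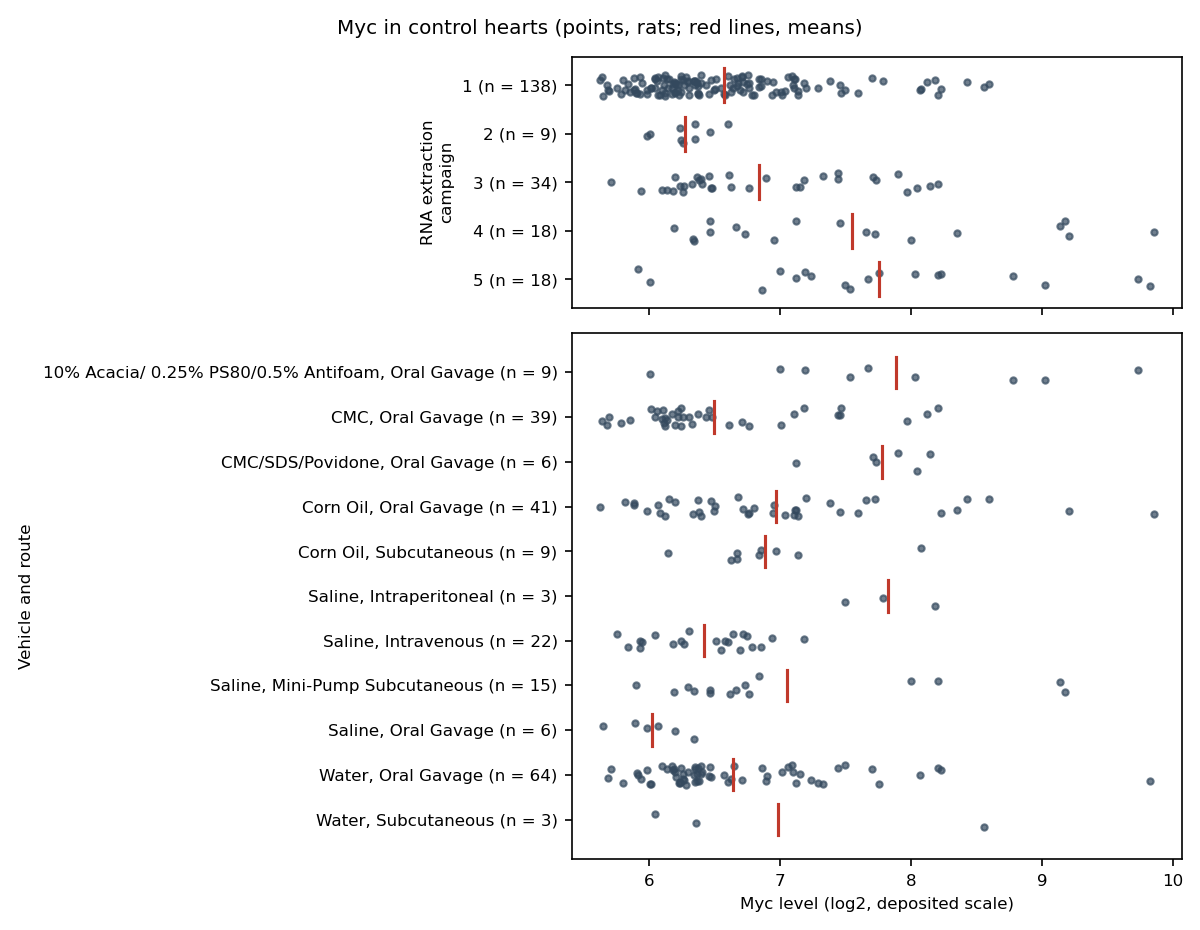
Myc level (log2, deposited scale) in control rats by RNA extraction campaign (top) and by vehicle and route (bottom), with points for rats and red lines for means. Campaigns 4 and 5 have means of 7.54 and 7.76 against 6.57 in campaign 1, and single rats of most groups reach beyond 8.

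The same heart could give different Myc values when its RNA was extracted and hybridised again. In the 22 rats with 2 arrays the later array minus the earlier had a median of 0.15 and an SD of 0.80, and ran between -1.61 and 1.72, with the later one higher in 14. The median size of the difference was 0.57. Over these rats both values correlated with r = 0.64, a description over 22 hearts whose arrays share batches.

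Next, the Myc network was examined. Mycn, a close relative of Myc, was called lower in 8 of 95 profiles and in 3 of the 9 with Myc past the rule, at -0.86 ± 0.22 with Sulindac, -0.82 ± 0.17 with Clofibric Acid and -0.73 ± 0.15 with Chlorobenzene. Its difference was below 0 in each of the 9. Lower Mycn was common over all 95 profiles too, with a median difference of -0.39. At an unadjusted p under 0.05 it was lower in 41 of them and higher in 8. Mycl, the other relative, was called in 0 of the 95 profiles by limma, with 5 higher and 2 lower at an unadjusted p under 0.05. Over these 9 profiles, 1.18% of all gene and profile pairs were called higher and 0.669% lower, which is the background for the counts that follow. The lists were made with earlier results known, and values from the contrasts that chose Myc are descriptions.

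Of the 10 dimer partners and antagonists, 4 of 90 gene and profile pairs were called higher in the 9 profiles and 0 lower (11 lower at an unadjusted p under 0.05), with a median difference of 0.02 against 0.0022 over all genes. Max, the obligate partner, was higher by 0.73 ± 0.11 with Sulindac, together with the antagonists Mxd1 (0.69 ± 0.10) and Mxi1 (0.62 ± 0.13). Mxd4 was higher by 0.60 ± 0.10 with Tacrolimus. Over all 95 profiles Max was called higher in 4, Mxd1 and Mxi1 in 2 each, and Mxd4 in 1. Mxd3, Mnt, Mga, Mlx, Mlxip and Mlxipl were called in 0, although at an unadjusted p under 0.05 Mxd3 was lower in 29 profiles and higher in 3, Mnt higher in 16 and lower in 12, Mga higher in 7 and lower in 6, Mlx higher in 15, Mlxip higher in 13 and lower in 11, and Mlxipl higher in 5 and lower in 4. Fbxw7, the ubiquitin ligase subunit that marks Myc protein for degradation, was called lower in 3 of the 9, at -0.96 ± 0.12 with Chlorobenzene, -0.76 ± 0.14 with Tacrolimus and -0.61 ± 0.12 with Fludrocortisone Acetate. Over all 95 profiles it was called lower in these 3 and was lower at an unadjusted p under 0.05 in 36, with a median difference of -0.27.

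The ribosome biogenesis genes, the best known targets of Myc, were called in none of the 9 profiles. Of 225 gene and profile pairs 0 were called by limma and 0 by the methods' t-test, and 70 were higher and 6 lower at an unadjusted p under 0.05 by limma, which is 31.1% and 2.67% against 10.6% of all pairs either way. The median difference was 0.10 over the list and 0.0022 over all genes. Nucleolin (Ncl) differed by -0.04 to 0.36, fibrillarin (Fbl) by -0.11 to 0.41 and ornithine decarboxylase (Odc1), a target from the polyamine list, by -0.11 to 0.32. These ranges lie below those of Myc itself, which differed by 0.99 to 2.29.

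Other targets were called rarely. In the nucleotide, polyamine and glycolysis list 2 of 171 pairs were higher, namely Pfas (0.66), an enzyme of purine synthesis, and Slc7a5 (1.14 ± 0.27), an amino acid carrier, both with Sulindac. The 2 lower pairs were of Tfrc, the transferrin receptor, at -2.27 ± 0.18 with Chlorobenzene and -0.88 with Tacrolimus. In the cell cycle list 1 of 108 pairs was higher, the replication helicase subunit Mcm4 with Sulindac (0.66). The 5 lower pairs were Ccnd2, a D cyclin, with Sulindac (-0.68), E2f2 with Mitoxantrone (-0.94) and Cks2, a subunit of cyclin-dependent kinases, with Mitoxantrone (-1.40), Chlorobenzene (-0.88) and Fludrocortisone Acetate (-1.09). Of 99 translation and chaperone pairs 1 was higher, Eif4ebp1 with Sulindac (0.68).

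Genes known to be repressed by Myc were called higher in 11 of 63 pairs (17.5%) and lower in 0 (1 at an unadjusted p under 0.05), with a median difference of 0.10. Cdkn1a, which halts the cell cycle, was higher by 1.54 ± 0.17 with Mitoxantrone and by 1.04 with Etidronate. Gadd45a, a stress gene, was called with Etidronate (0.88), Chlorobenzene (0.67), Gabapentin (1.10) and Tacrolimus (0.78). Ndrg1, a differentiation and stress gene, was called with Sulindac (1.28), Etidronate (0.99), Chlorobenzene (0.86), Gabapentin (0.59) and Tacrolimus (0.67).

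**Figure D5:**
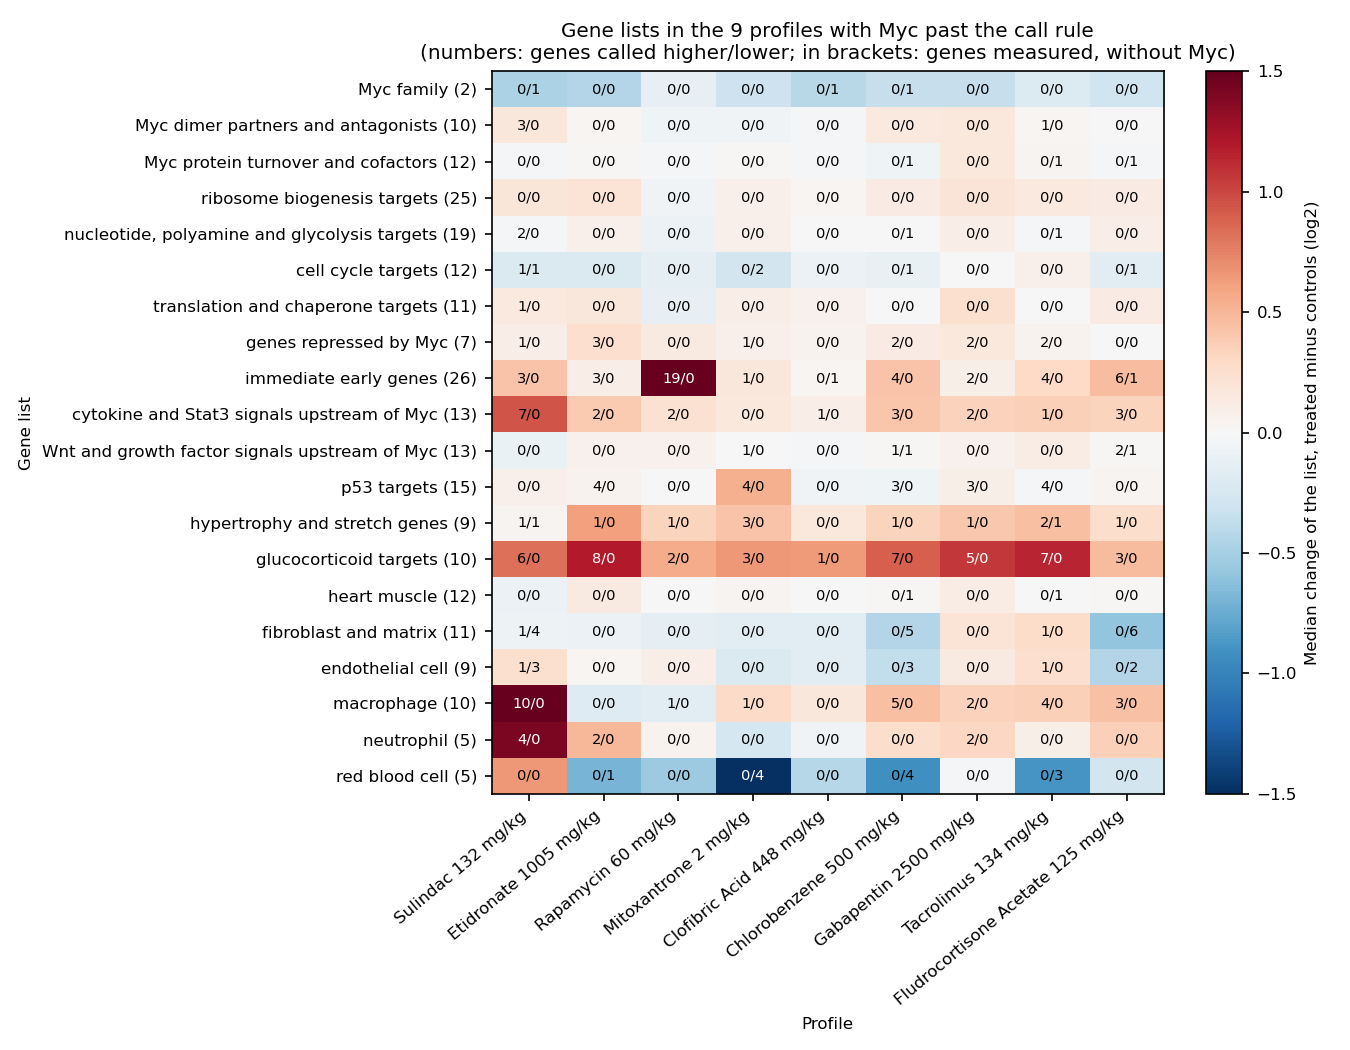
Median difference of each gene list (colour, log2, treated minus matched controls) in the 9 profiles with Myc past the call rule, with the numbers of genes called higher and lower in each cell and the number of genes measured in brackets. Glucocorticoid targets have called genes in each profile, immediate early genes peak at 19 with Rapamycin, and ribosome biogenesis targets have none.

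Immediate early genes, which are transcribed within minutes of a stimulus, were called higher in 42 of 234 pairs (17.9%) and lower in 2, with a median difference of 0.33. Rapamycin held 19 of the 42. Its Fos difference was 5.38 ± 1.12, that of Fosb 4.23 ± 0.56, of Egr1 3.60 ± 0.66 and of Atf3 4.07 ± 0.78, all transcription factors of the early response. Nr4a3, an orphan nuclear receptor, was called in 7 of the 9 profiles, with 4.84 ± 0.80 for Etidronate, 4.68 ± 0.65 for Chlorobenzene, 4.52 ± 0.85 for Tacrolimus, 4.22 ± 0.77 for Gabapentin, 4.03 for Rapamycin, 4.00 ± 0.66 for Fludrocortisone Acetate and 3.30 ± 0.64 for Mitoxantrone. With Sulindac the called members were Junb (1.77), Maff (1.22) and Zfp36 (1.39), and with Clofibric Acid Klf10 was lower (-0.79). Immediate early genes were thus spread unevenly over profiles of like Myc difference.

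Cytokine and Stat3 signals, which induce Myc in many cells, were called higher in 21 of 117 pairs (17.9%), with a median difference of 0.31. Sulindac held 7 of them, with Cxcl1, a chemokine for neutrophils, at 3.12 ± 0.46, Timp1, an inhibitor of matrix proteases, at 2.17 ± 0.29, Il6 at 1.52, its receptor Il6r at 1.40, the feedback inhibitor Socs3 at 1.08 and Stat3 itself at 0.95. Nfkbia, an inhibitor of NF-kB that NF-kB induces, was called in 7 of the 9, between 0.90 with Clofibric Acid and 1.95 with Etidronate. The chemokine Ccl2 was higher with Fludrocortisone Acetate (2.40). Wnt and growth factor signals gave 4 higher and 2 lower of 117 pairs.

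Glucocorticoid targets had the highest share of called pairs, 42 of 90 (46.7%) with 0 lower (0 also at an unadjusted p under 0.05), and a median difference of 0.78. Cebpd, a transcription factor of the acute response, was called in all 9 profiles, at 2.17 ± 0.21 with Sulindac and between 0.72 and 1.23 in the rest. Mt2A, a metallothionein, reached 4.19 ± 0.33 with Sulindac. Pdk4, which turns muscle from glucose to fat, was higher by 2.29 ± 0.27 with Etidronate and by 2.23 ± 0.28 with Gabapentin. Fkbp5, a chaperone of the glucocorticoid receptor, was higher by 2.03 ± 0.24 with Etidronate and was -0.26 ± 0.27 with Rapamycin. Rapamycin had 2 called members of 10 and Clofibric Acid 1, against 8 for Etidronate and 7 each for Chlorobenzene and Tacrolimus. In the profiles without a Myc call 4.3% of the list's pairs were called higher, where 0.271% of all pairs were.

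The list of p53 targets shares Cdkn1a and Gadd45a with the genes repressed by Myc, so their calls count in both. Targets of p53 were called higher in 18 of 135 pairs (13.3%), with a median difference of 0.04. With Mitoxantrone these were Cdkn1a, Phlda3 (0.97), Aen (0.80) and Zmat3 (0.60), genes induced by DNA damage. Sesn1 and Ddit4, both inhibitors of mTOR signalling, were called with Etidronate (1.06 and 1.81), Chlorobenzene (1.05 and 1.43), Gabapentin (0.98 and 1.37) and Tacrolimus (0.88 and 1.59). Hypertrophy and stretch genes gave 11 higher and 2 lower of 81 pairs, with a median difference of 0.30. Myh7, the slow myosin heavy chain of stressed rat heart, was higher by 2.98 ± 0.30 with Sulindac, 2.20 ± 0.18 with Tacrolimus and 1.76 ± 0.26 with Mitoxantrone. The natriuretic peptide genes Nppa and Nppb were not called in any of the 9, with Nppa between 0.08 and 0.98 and Nppb between -0.25 and 0.43. Xirp1, an actin-binding protein of intercalated discs, was called in 7 of the 9, between 0.83 and 1.18.

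Cell type markers showed where the makeup or state of the tissue differed beside Myc. Macrophage markers were called higher in 26 of 90 pairs (28.9%), neutrophil markers in 8 of 45 (17.8%), and red cell markers were lower in 12 of 45 (26.7%). Fibroblast and matrix markers were lower in 15 of 99 pairs (15.2%) and higher in 2. Endothelial markers were lower in 8 of 81 (9.88%) and higher in 2. Heart muscle markers had 0 higher (8 at an unadjusted p under 0.05) and 2 lower of 108 pairs, and their median differences lay between -0.09 and 0.13. With Rapamycin and Clofibric Acid, 1 and 0 of the 10 macrophage markers and 0 and 0 of the 5 neutrophil markers were called while Myc was higher by 1.59 and 1.24, and mean macrophage levels were 7.36 to 8.04 in Rapamycin rats and 7.49 to 8.09 in their controls. The part of these cells in the Myc difference was not tested.

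Across all 95 profiles the genes whose differences ran most like those of Myc were Cebpd (Pearson r = 0.853), Enc1 (0.834), Xirp1 (0.828), Tnfaip6 (0.825), Abra (0.821), Ifrd1 (0.819), Srxn1 (0.818), Nr4a3 (0.808), Adamts1 (0.801) and Gfpt2 (0.800). Profiles share controls and batches, so these values are descriptions with no test. Tnfaip6 encodes a hyaluronan-binding protein induced by inflammation, Srxn1 an antioxidant enzyme and Adamts1 a matrix protease. Of these 10, Cebpd was called higher in 15 profiles, Enc1 in 11, Xirp1, Srxn1 and Gfpt2 in 10 each, Nr4a3 in 9, Abra in 8, Ifrd1 in 6, Tnfaip6 in 4 and Adamts1 in 2. Nr4a3 was also called lower in 3 profiles and Xirp1, Abra and Adamts1 in 2 each. Running most opposite were Tet1 (-0.711), a DNA demethylase, Zfp3 (-0.704), Zcchc3 (-0.698), Zbtb5 (-0.697) and Mfsd4b1 (-0.695).

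Many of the same genes ran with Myc in hearts without any compound. Over 212 control rats, centred on the mean of their 43 groups of vehicle, route, duration and campaign, the highest values were those of Tnfaip6 (r = 0.797), Csrnp1 (0.794), Plaur (0.777), Gfpt2 (0.761), Enc1 (0.751), Ch25h (0.745), Ifrd1 (0.742), Cebpd (0.742), Xirp1 (0.739) and Cxcl1 (0.725). Of the 10 highest genes 6 were shared between both lists, and of the 100 highest 69 were. Controls enter both measures, and rats of 1 group share hybridisation batches, so the overlap is given as a count alone. Each of the 10 genes most like Myc over profiles had a lower r over control rats. The lowest were Nr4a3 (0.585), Srxn1 (0.606) and Abra (0.610), and the difference was not tested.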

How the data were processed

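The authors' processed values were used, log2 levels of 31099 probe sets that the submitters' processing notes credit to RMA. A gene was taken as its single-symbol probe set of highest mean, and 14217 genes remained. Each rat entered with 1 array, that of the earlier extraction campaign. Groups come from the labels, and 12 controls whose labels disagree were left out of comparisons. limma 3.58.1 (R 4.3.3) fitted each profile against its matched controls over all genes, with duration and campaign as 1 factor, and p-values were adjusted by Benjamini-Hochberg. Fits were tested on simulated data. The Imatinib doses and the control hearts were fitted in the same way. An interaction with duration was fitted too but is not used, since the choice of Myc rests on the same differences. Myc, its gene lists, the classes of compounds and the bounds for arrays that stand apart were chosen with earlier results of these data known. Named are Myc, its family and partners, up to 4 genes per list with most calls, listed genes of named profiles, markers that moved, the 10 genes most and 5 least like Myc, and profiles past the call rule, at either end, in named classes or at 2 doses. Alternatives changed the controls, normalization, batch blocks, filters, probe set, array, test, and rats or durations left out. No Myc sequence was used.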

Additional observations from a re-analysis of the deposited data

Results flagged for a closer look

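In 5 of the 77 profiles with 2 or more durations, every treated rat of one duration lay above its control mean and every treated rat of another lay below. How often other genes, or chance with so few rats per duration, would give this pattern was not counted, so the 5 are a description. These values belong to the contrasts by which Myc was chosen, so no test of the difference between durations is given. With Benzethonium Chloride, a disinfectant, Myc differed by -0.67 at 3 d (5.72 to 6.06) and by 1.21 at 5 d (7.09 to 9.11). Aldosterone by mini-pump gave -0.69 at 1 d and 0.66 at 5 d, with 2 controls at each duration. Daunorubicin at 3.25 mg/kg gave 0.36 at 3 d and -0.52 at 5 d. For Cyproheptadine the values were 0.10 at 1 d, -0.30 at 3 d and -0.45 at 5 d. Chlorambucil gave 0.79 at 3 d and -1.16 at 5 d, where the 3 treated rats lay below all 11 controls.

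Among 16 groups of 4 to 10 rats, 1 control rat lay far from its group. That rat, a CMC control of 3 d in campaign 1, had a Myc level of 7.47, against 6.01 to 6.30 in the other 8, and its array correlated at 0.994 with the mean array. Chance alone flags about 1 in 20 groups.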

How the results depend on the processing

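Of the 9 profiles past the call rule, 4 kept the call whichever rat was left out and 0 whichever duration was left out. With controls of the own study alone 0 of 51 profiles were called (11 at an unadjusted p under 0.05), but only Clofibric Acid of the 9 could be fitted so. With study as a block 6 of 78 profiles were called, 5 of them among the 9 and Fluocinolone Acetonide besides. Controls of every campaign gave 10 calls, of which 6 were among the 9 and the others were Famotidine, Loratadine, Daunorubicin at 2 mg/kg and 2'-Beta-Fluoro-2',3'-Deoxyadenosine. The hybridisation block gave 8 calls (7 of the 9 and Phenytoin), the methods' t-test 7 and new quantile normalization 8, all among the 9. All 9 were kept with the highest-variance probe set (9 calls), the upper 60% of genes and without arrays that stand apart (10 each, with Phenytoin), and the later array (11, with Phenytoin and Paroxetine). For the 9 profiles, 45 values fell short of the call rule and 315 did not change their side of it. In control hearts, campaign 4 minus campaign 1 was 0.87 with study as a block (adjusted p = 0.0615 by limma) and 0.87 with hybridisation batch as a block (adjusted p = 0.0333), and the F over vehicle with route was 3.18 with study as a block (adjusted p = 0.0267). Between Imatinib doses the difference ran between -0.06 and 0.11 over rats left out in turn, at -0.0284 without a 15 mg/kg rat and -0.0640 without a 150 mg/kg rat, both of 5 d. Calls of network and target genes lower in the 9 profiles numbered 13, and 6 over the upper 60% of genes, which leaves fewer genes tested. The cause of the other changes was not tested. No paired analysis was possible because replicate numbers follow accession order and mark no shared animal or batch.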

Other observations

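Over all 95 profiles, the listed genes that were called most often came from several lists. The lists were made with earlier results of these data known. Of all gene and profile pairs 0.357% were called higher and 0.344% lower. Alas2, the haem enzyme of red cells, was called lower in 23 profiles and higher in 0. Of the other red cell genes, Ahsp was called lower in 18, Slc4a1 in 15 (higher in 1) and Hbb in 14. Cd93, an endothelial receptor, was also called lower in 23 profiles. Tfrc and Cks2 were called lower in 19 profiles each, with Cks2 higher in 2. S100a9 was called higher in 11 and lower in 4, and Postn, a matrix protein, higher in 5 and lower in 8. Myh7 was called higher in 16 profiles, Cebpd in 15, Nfkbia and Mt2A in 14 each, and Sesn1, Pdk4, Cd163 and Mrc1 in 13 each, none of them lower in any. Among genes with fewer calls, Rcan1, a feedback inhibitor of calcineurin, was called lower in 10 profiles and higher in 2. Of the ribosome biogenesis genes, Nip7 was called higher in 1 profile.

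Samples outside the comparisons had Myc levels in the same range. Daunorubicin at 2 mg/kg by gavage, which has no matched controls, had 6.03, 6.76 and 8.05 as lowest, median and highest of 9 rats. The 9 rats of 2'-Beta-Fluoro-2',3'-Deoxyadenosine at 7.5 mg/kg had 5.85, 7.04 and 9.19. The 12 controls whose labels disagree had 6.11, 7.10 and 9.51.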
